A study of Mus musculus with 6 samples.

Results

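The genes described here are 42 genes of the presynaptic terminal, the part of an axon that stores transmitter in vesicles and releases it. They were chosen by name, as every row of the deposited tables whose gene symbol is on a fixed list, and all 42 were found among the 24411 genes of the tables. Their values were summed over the 73 transcripts that the tables hold for them. The libraries are polyadenylated RNA from the corpus callosum, the tract of axons that joins the cortical hemispheres, dissected by hand from 60 µm frozen sections of mouse brain on postnatal day 4. Per the labels the mice were B6, and 3 libraries were from WT animals and 3 from a conditional knockout of Mettl14 (cKO). METTL14 is the partner of METTL3 in the enzyme that writes N6-methyladenosine (m6A) on mRNA. For the driver of the deletion, the cells in which it acts and the animals behind each library, nothing is given in the sources used here. The p-values therefore cover the spread among the 6 libraries, which may be technical. The question of the series is the role of m6A in moving neuronal mRNA from cell bodies into axons and dendrites.

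A synaptic vesicle is filled by a transporter, tethered at the active zone by large scaffold proteins, and primed when the SNARE proteins of the vesicle and of the plasma membrane pair. Calcium that enters the terminal acts on synaptotagmins, the membranes fuse, and the vesicle membrane is later taken back by endocytosis. On postnatal day 4 many callosal axons are still growing, and vesicle and release proteins travel along them in transport packets. Most of these proteins are made in the cell body, and some of their mRNAs are also found in axons. In bulk tissue, fewer cells of a type and less RNA per cell cannot be told apart.

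The libraries were shallow, with totals of 670462 to 1268430 expected counts. Levels are given as CPM (counts scaled to library size, TMM-adjusted). A gene read at 0 can have had a true mean level of up to about 3 counts, or 2.41 to 4.24 CPM. The tract held RNA of several cell types. Summed over 10 markers of astrocytes the level was 10109 to 10656 CPM in WT and 2939 to 3211 in cKO. For 12 markers of myelinating oligodendrocytes it was 2554 to 4131 in WT and 3.00 to 10.8 in cKO, where Mag, Mog, Myrf, Enpp6, Cldn11 and Gpr17 were at 0 and Mobp was at 0 in both genotypes. For 10 markers of the cell bodies of neurons, mostly projection neuron transcription factors, it was 281 to 519 in WT, with Neurod2 and Bcl11b at 0, and 5497 to 6562 in cKO. For 8 RNAs of growing neurites it was 7131 to 8043 in WT and 17092, 14613 and 8046 in cKO replicates 1 to 3, with Nefm at 0 in cKO. Microglial markers summed to 66.3 to 447 CPM in WT and 43.0 to 216 in cKO, and endothelial markers to 83.8 to 171 and 29.0 to 47.1. Xist was at 0 in WT and had 2970, 2323 and 4618 counts in cKO. The 4 Y-linked genes examined summed to 85.1 to 189 CPM in WT and were at 0 in cKO. The labels give no sex, and by these transcripts sex divides exactly as genotype does. Effects of sex and of genotype therefore cannot be told apart in any comparison made here. Mettl14 itself had only 11, 8 and 5 counts in the WT libraries against 2, 7 and 2 for cKO, too few to show its loss. Both replicate 2 libraries were deeper and had shorter fragments, with means of 304.3 and 292.7 bases against 332.4 to 350.5. cKO replicate 3 stood apart from the other cKO libraries in markers of oligodendrocyte precursors (14.1 CPM against 659 and 975). It also stood apart in markers of interneurons (31.1 CPM against 481 and 712). For these lists the WT libraries summed to 2586 to 3113 and 915 to 1366 CPM, above every cKO library.

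**Figure D1:**
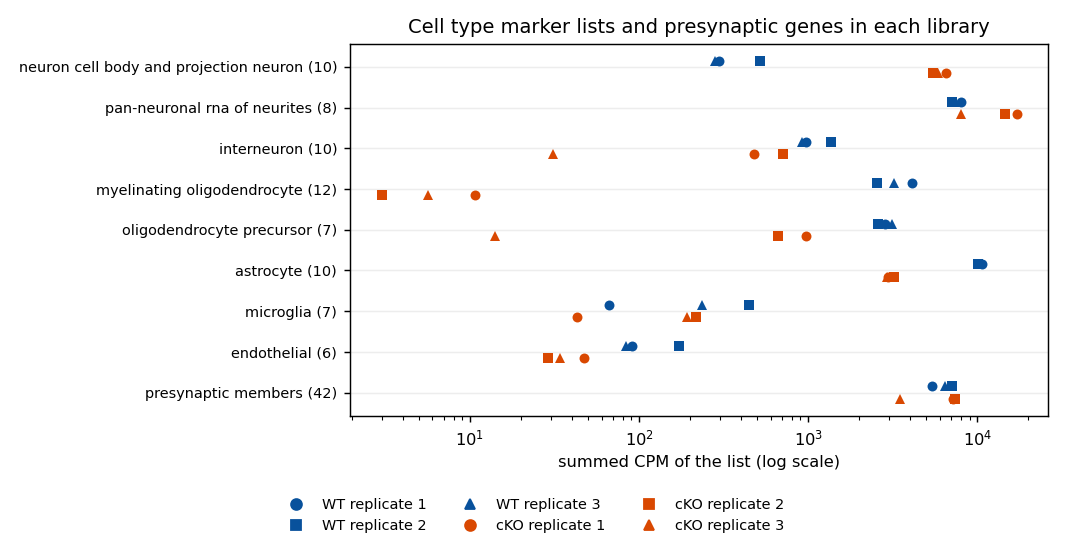
Summed CPM of each marker list (number of genes in parentheses) and of the 42 presynaptic genes, on a log axis, with 1 point per library; blue is WT and orange is cKO. The oligodendrocyte, oligodendrocyte precursor, astrocyte, interneuron and endothelial lists lie lower in all 3 cKO libraries, and the list of neuronal cell body markers higher. The presynaptic sum spans 5429 to 7042 CPM in WT and 3468 to 7360 in cKO.

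The summed level of the presynaptic genes overlapped between the genotypes. It was, in TPM (the share of transcripts, scaled to transcript length), 2275, 3717 and 2806 for WT replicates 1 to 3 against 3156, 3122 and 1970 for cKO. The lowest of these sums belongs to a cKO library and the highest to a WT library. Within WT, 7 genes had a mean of at least 100 TPM, 18 lay between 10 and 100, and 17 lay below 10. Syt11, an unusual synaptotagmin that does not bind calcium and is also known from glia, was the most abundant in WT at 696 ± 69.0 TPM (SD, n = 3). It was followed by the vesicle protein Syp at 368 ± 35.0, the SNARE protein Snap25 at 345 ± 23.7, and the vesicle GTPase Rab3a at 295 ± 238. Vamp2, Nrxn2, Stx1a and Dnm1 came next, at 123 ± 171, 107 ± 10.1, 102 ± 78.8 and 95.2 ± 59.1 TPM. Of the 41 neighbouring pairs in this order only Syt11 and Syp had WT libraries that did not overlap, so other neighbours in this order do not differ beyond their spread. Genes further apart in it can, as Syp and Snap25 lay above Nrxn2 in every WT library. In CPM, which is not scaled to length, 7 of these 8 were again among the 8 highest.

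**Figure D2:**
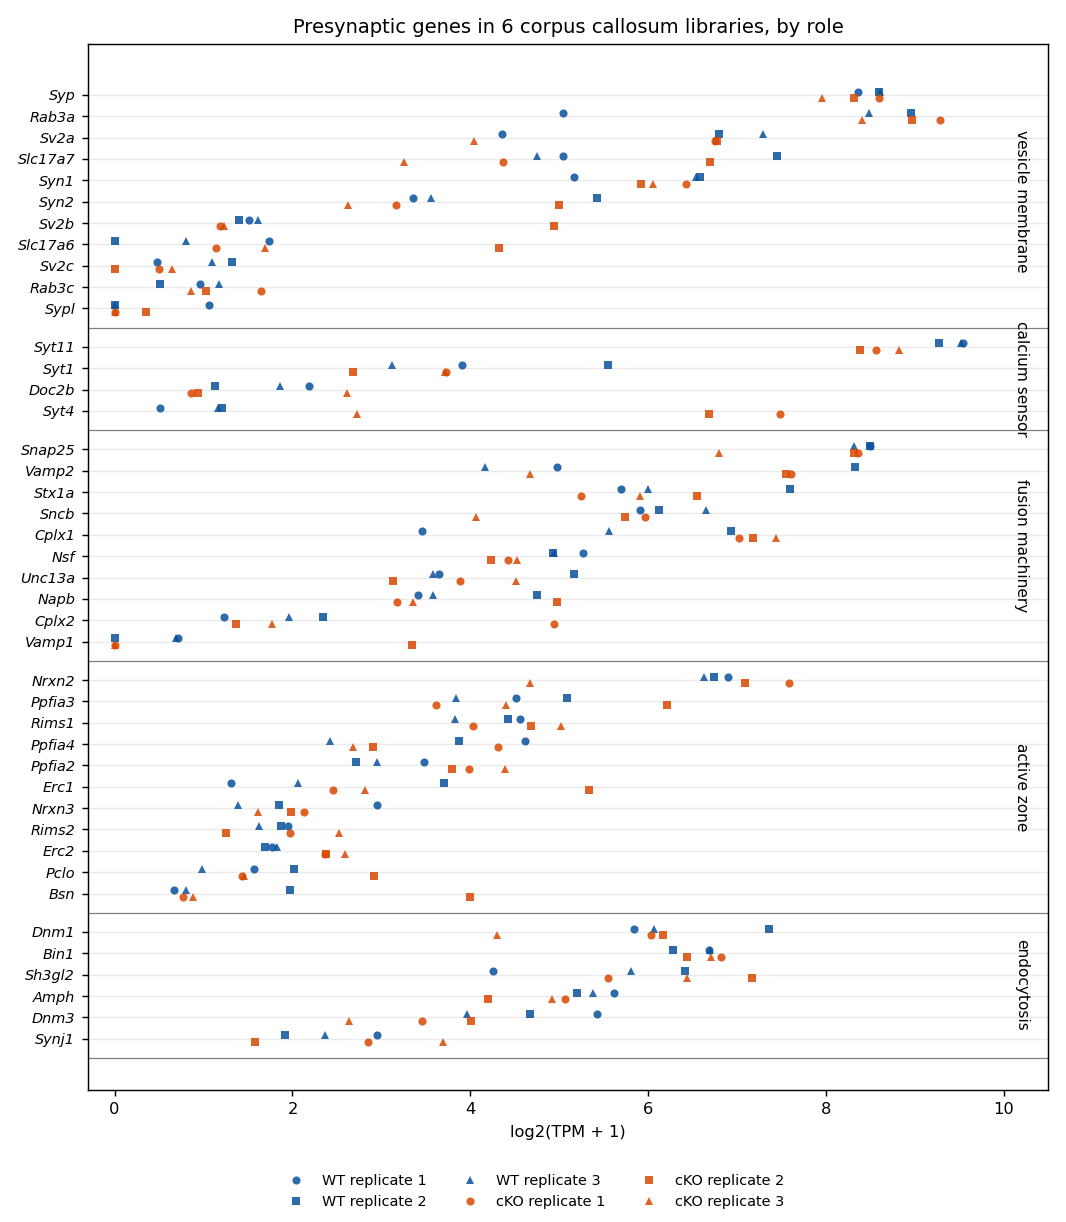
Level of each of the 42 genes as log2(TPM + 1), by role, with 1 point per library (blue WT, orange cKO; symbols mark the replicate). Points of 1 gene often spread further within a genotype than between genotypes, as for Rab3a and Vamp2, while the 3 WT points of Syt11 lie above its 3 cKO points.

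The comparison of cKO with WT asks whether loss of the m6A writer alters these mRNAs in the tract. Of the 42 genes 33 had enough counts to be tested, and 0 of the 33 passed at an adjusted p below 0.05 (edgeR quasi-likelihood test, Benjamini-Hochberg adjustment over 5918 genes). Over all tested genes 0.912% passed; higher calls were 0.49% and lower calls 0.422%. At an unadjusted p below 0.05 there were 4 of the 33, namely Syt4, Syt11, Erc2 and Ppfia2, against 12.6% of all genes. limma-voom called 0 of the 33, where it called 0.71% of all genes. DESeq2 called 2, Syt4 higher and Syt11 lower, where it called 7.34% of the 5847 genes given an adjusted p. Erc1 and Vamp2 were given none by DESeq2. The median log2 fold change of the 33 was −0.01, with 16 positive and 17 negative values, and that of all tested genes was 0.07. In 6 of the 33 genes the 3 WT and 3 cKO libraries did not overlap in CPM, which is 18.2% against 19.8% of all tested genes. These were Syt4, Cplx1, Erc2 and Ppfia2, higher in cKO (all genes 10.4%), and Syt11 and Nsf, lower in cKO (all genes 9.45%). A gene in the tested set passed a minimum of counts that its higher group can meet alone, so counts over the 33 describe these genes only.

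**Figure D3:**
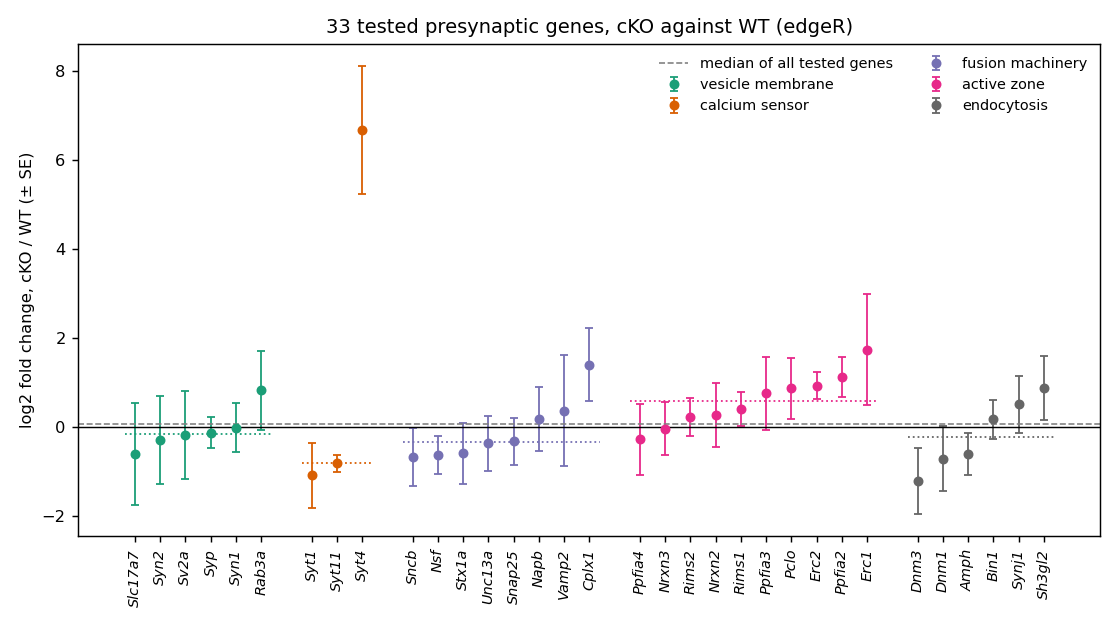
Log2 fold change of cKO over WT with its standard error for the 33 tested genes, grouped and coloured by role, with each role's median dotted and the median of all tested genes (0.07) dashed. Syt4 at 6.68 stands far above the rest, whose values lie between −1.21 (Dnm3) and 1.74 (Erc1).

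Of the synaptotagmins and Doc2b, which are grouped as calcium sensors although SYT11 itself does not bind calcium, Syt4 and Syt11 had the smallest p-values of the list. In the WT libraries Syt11 was at 740, 617 and 731 TPM, against 375, 332 and 452 for cKO. Every cKO library was lower than every WT library, and the WT mean was 1.80 times that of cKO. The log2 fold change was −0.81 (SE 0.19; edgeR adjusted p = 0.175). DESeq2 gave an adjusted p of 0.000469, and the value stayed between −1.12 and −0.73 over all 16 alternatives, with adjusted p from 0.000469 to 0.519. The gene spans chromosome 3, 88744700 to 88775164 (GRCm38, minus strand). Summed over the 10 astrocyte markers, the level given above was also lower in all 3 cKO libraries, with 2 of 8 tested past the threshold. Single markers did not all follow the sum. Gfap had 827, 1286 and 1072 counts in WT but 40, 47 and 729 in cKO, so cKO replicate 3 held far more than the other cKO libraries. The part of these markers in the result was not tested.

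Syt4, a synaptotagmin of dense-core and other regulated vesicles in young neurons, was nearly absent from WT, with 1, 4 and 3 expected counts. The cKO libraries held 397, 303 and 9. The first pair of cKO libraries were thus far higher than WT, while cKO replicate 3 was only a few counts above it. As TPM this is 0.993 ± 0.489 in WT and 95.04 ± 86.1 in cKO (SD, n = 3), and the log2 fold change was 6.68 (SE 1.43; edgeR adjusted p = 0.143). It passed with DESeq2 (adjusted p = 1.41e-06), with edgeR under upper-quartile scaling (0.0239, where 1.17% of all genes passed), and with edgeR when cKO replicate 3 was left out (7.26 and 0.0372, where 0.63% passed). Over all 16 alternatives its adjusted p ran from 1.41e-06 to 0.490. Syt4 (chromosome 18, 31437808 to 31447406, minus strand) shares exon bases with Gm26658 on the other strand, and the library kit does not mark strand. Summed over the 10 markers of neuronal cell bodies, the level was higher in all 3 cKO libraries, with 1 of 8 tested past the threshold. In cKO replicates 1 to 3 the sum was 6562, 5497 and 5850 CPM, so it did not fall in replicate 3 as Syt4 did. The part of these markers in the result was not tested.

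Syt1 encodes the main fast calcium sensor of vesicle release. It had 14.04, 45.6 and 7.68 TPM in WT and 12.2, 5.41 and 12.1 in cKO. The groups overlap, and the value on the log2 scale was −1.08 (SE 0.73; edgeR adjusted p = 0.619). It became 0.16 without both replicate 2 libraries, of which the WT library held the highest level. Doc2b, a high-affinity calcium sensor, had 2 to 9 counts in every library and was below the filter.

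Of the 11 genes of the vesicle membrane 6 were tested, and their log2 fold changes had a median of −0.14. Syp, whose protein synaptophysin is the most common vesicle marker, had 327, 386 and 390 TPM in WT and 387, 316 and 247 in cKO. These ranges overlap, and the log2 fold change was −0.12 (SE 0.35). Syn1, one of the synapsins that tie vesicles to one another, was at 74.0 ± 34.0 and 69.9 ± 13.2 TPM (SD, n = 3), −0.01 (SE 0.55). Both Syp and Syn1 lie on the X chromosome, on which the genotypes also differ by Xist. Syn2 was at 20.7 ± 18.5 and 14.7 ± 14.2 TPM.

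Rab3a, a GTPase that guides vesicles to release sites, had 31.9, 495 and 357 TPM in WT and 620, 500 and 337 in cKO. WT replicate 1 was more than 10 times lower than the other WT libraries, and the rest overlap. The log2 fold change was 0.83 (SE 0.89), and 0.30 without WT replicate 1. Sv2a, a vesicle glycoprotein, was low in 1 library of each genotype, with 19.4, 110 and 156 TPM in WT and 106, 108 and 15.5 in cKO. Its relative Sv2b had 6, 7 and 7 counts in WT replicates, 4 and 3 in cKO replicates 1 and 3, and 123 in cKO replicate 2, and Sv2c had 0 to 5 in each. For the main glutamate transporter of cortical vesicles, Slc17a7 (VGLUT1), the levels were 32.0, 174 and 26.0 TPM in WT and 19.6, 103 and 8.54 in cKO. Both replicate 2 libraries were the highest of their genotype, and the log2 fold change was −0.60 (SE 1.15). Slc17a6 (VGLUT2), used by subcortical and by young cortical neurons, had 6, 0 and 2 counts in the WT libraries against 3, 63 and 4 for cKO. As with Sv2b, cKO replicate 2 held most of them, and neither gene passed the filter. Rab3c and Sypl had 0 to 11 counts in each library.

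The fusion machinery held 8 tested genes of 10, with a median log2 fold change of −0.34. Snap25, a plasma membrane SNARE, had 359, 359 and 318 TPM in WT, 327 and 317 in cKO replicates 1 and 2, and 110 in cKO replicate 3. All libraries but the last were close to each other. The log2 fold change was −0.31 (SE 0.53), and 0.11 without cKO replicate 3. Vamp2, the vesicle SNARE, had 30.4, 320 and 16.9 TPM in WT and 193, 186 and 24.4 in cKO. High and low libraries occurred in both genotypes, and the log2 fold change of 0.37 (SE 1.25) turned to as low as −0.13 when single libraries were left out. Stx1a, the other plasma membrane SNARE, had 50.7, 193 and 62.8 TPM in WT and 36.8, 92.9 and 59.1 in cKO, −0.59 (SE 0.69). Vamp1, which takes the place of Vamp2 in other neurons, had 20 counts in cKO replicate 2 and 0 or 1 elsewhere.

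Cplx1, a complexin that holds the SNARE complex ready until calcium arrives, was higher in every cKO library. It had 9.98, 121 and 46.0 TPM in WT and 129, 144 and 172 in cKO. The cKO libraries lay close together while the WT libraries spread over 12.1-fold, and the log2 value was 1.41 (SE 0.82; edgeR adjusted p = 0.561). It was 0.91 without WT replicate 1 and 2.37 without WT replicate 2. Nsf, the ATPase that takes used SNARE complexes apart, was lower in every cKO library, with 37.4, 29.5 and 29.6 TPM in WT and 20.4, 17.8 and 22.0 in cKO. Its log2 value was −0.62 (SE 0.43; edgeR adjusted p = 0.640), and it kept this sign over its 16 alternatives. Napb, an adaptor of NSF, overlapped between the genotypes at 15.5 ± 9.08 and 15.9 ± 12.5 TPM (SD, n = 3). Sncb, a synuclein of terminals, had 59.1, 68.5 and 99.4 TPM in WT and 61.6, 52.4 and 15.7 in cKO, and the priming factor Unc13a was at 19.1 ± 13.6 and 14.5 ± 7.04 TPM. Cplx2 had 4, 16 and 9 counts in the WT libraries against 86, 6 and 5 for cKO, and was below the filter.

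**Figure D4:**
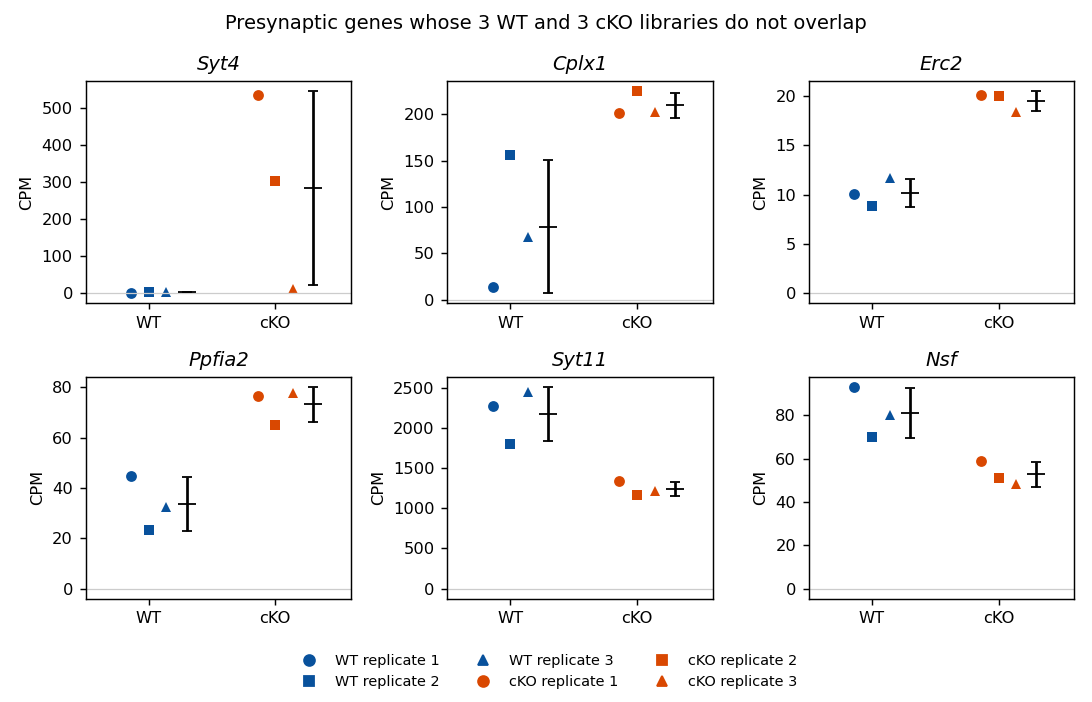
CPM in each library of the 6 tested genes whose WT and cKO libraries do not overlap, with mean and SD in black (n = 3). In Erc2, Ppfia2, Syt11 and Nsf the points of a genotype lie close together, in Syt4 the cKO points and in Cplx1 the WT points spread widely.

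The transcripts of Snap25 also report on development, since the gene has an alternative exon 5. The form with exon 5a prevails in the embryonic and newborn brain and the form with exon 5b in the adult. The exons are shown because they differ between the forms, so reads that cover them bear on the deposited estimate of each form. The deposited transcripts are of equal length (2119 bases). The matched GENCODE M21 models of the 5a and 5b forms also differ in the lengths of exon 1 (123 and 148 bases) and exon 8 (277 and 1354 bases). Capitals mark the 31 of 118 bases that differ (GENCODE M21, GRCm38; chr2:136769743-136769860 for exon 5a and chr2:136770057-136770174 for exon 5b, plus strand, both coding).
Snap25 exon 5a: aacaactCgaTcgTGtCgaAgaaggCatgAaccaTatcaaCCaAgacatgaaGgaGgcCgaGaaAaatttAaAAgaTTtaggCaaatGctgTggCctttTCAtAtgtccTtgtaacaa
Snap25 exon 5b: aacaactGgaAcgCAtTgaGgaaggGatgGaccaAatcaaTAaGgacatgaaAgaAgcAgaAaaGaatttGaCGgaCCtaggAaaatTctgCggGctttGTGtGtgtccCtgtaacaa
The form with exon 5a made up 50.8%, 59.8% and 75.7% of Snap25 TPM in WT and 62.7%, 63.2% and 70.2% in cKO. It was the larger part in all 6 libraries, and the genotypes overlap, with means of 62.1% ± 12.6 and 65.3% ± 4.2 (SD, n = 3).

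The division between transcripts could be followed in 4 genes with at least 50 counts in every library, Snap25, Syn1, Nrxn2 and Bin1. Nrxn2, a neurexin of the presynaptic membrane that binds partners across the cleft, was the 1 of these 4 whose genotypes did not overlap. By the same measure 23.6% of 466 genes with at least 50 counts in every library and several transcripts did not overlap. Its 6660-base transcript took 87.6%, 92.3% and 93.4% of its TPM in WT and 81.9%, 78.4% and 87.3% in cKO, and its 6060-base transcript nearly all of the rest. The closest WT and cKO libraries were less than 1 percentage point apart. For Syn1 the share of the 3213-base transcript ran from 6.52% to 80.4% within WT and from 31.7% to 100% within cKO, and for Bin1 that of the 2455-base transcript from 34.1% to 72.8% and from 41.1% to 84.9%. The genotypes overlap for both.

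Of the 11 genes of the active zone and its adhesion proteins 10 were tested, with 8 positive and 2 negative log2 fold changes and a median of 0.58. None of them passed with edgeR, as stated for all 33, and 2 had an unadjusted p below 0.05 against 12.6% of all tested genes. Positive values were found in 3188 of the 5918 tested genes. Erc2, a scaffold of the ELKS family, had 2.42, 2.24 and 2.56 TPM in WT and 4.16, 4.2 and 5.02 in cKO. The groups are apart and tight, but a library held only 9 to 20 counts of it. The log2 value was 0.94 (SE 0.31; edgeR adjusted p = 0.271). Its relative Erc1, also made outside neurons, had 1.48, 12.03 and 3.18 TPM in WT and 4.47, 39.3 and 6.03 in cKO. The highest value in each genotype was replicate 2, and its log2 fold change of 1.74 (SE 1.25) became −0.48 without cKO replicate 2.

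The liprins are adaptors that gather active zone proteins. Ppfia2 had 44.9, 23.3 and 32.6 CPM in WT and 76.6, 65.1 and 77.8 in cKO. All cKO libraries were above all WT libraries, and the log2 fold change was 1.12 (SE 0.45; edgeR adjusted p = 0.381, DESeq2 adjusted p = 0.0895). Ppfia4 had 23.5, 13.7 and 4.36 TPM in WT and 18.9, 6.52 and 5.42 in cKO, which overlap, and a log2 fold change of −0.27 (SE 0.80). Ppfia3 had 21.8, 32.97 and 13.3 TPM in WT and 11.2, 73.1 and 20.1 in cKO.

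The largest scaffolds were scarce. Pclo (Piccolo) was at 2.00 ± 1.05 TPM in WT and 3.32 ± 2.78 in cKO (SD, n = 3), with a log2 fold change of 0.88 (SE 0.68) that became −0.07 without cKO replicate 2. Bsn (Bassoon) had 6, 39 and 8 counts in the WT libraries against 7, 192 and 6 for cKO, most of them in the replicate 2 libraries, and was below the filter. Rims1, which links RAB3 on vesicles to calcium channels, was at 18.7 ± 4.91 and 23.8 ± 8.05 TPM, 0.41 (SE 0.38), and Rims2 at 2.53 ± 0.403 and 3.03 ± 1.69. Nrxn2 had 118, 106 and 98.1 TPM in WT, a tight set, and 191, 135 and 24.5 in cKO, where replicate 3 was the lowest of all libraries. Its log2 fold change of 0.28 (SE 0.73) turned negative under upper-quartile scaling (−0.19). Nrxn3 was at 3.65 ± 2.71 and 2.80 ± 0.684 TPM.

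All 6 genes of endocytosis were tested, with 3 positive and 3 negative values and a median of −0.21. Bin1 and Amph encode amphiphysins, which bend membrane and recruit dynamin, and Bin1 is also abundant in oligodendrocytes and other cells. Bin1 had 102, 76.6 and 103 TPM in WT and 112, 85.3 and 103 in cKO, a narrow range across all 6 libraries, and a log2 fold change of 0.18 (SE 0.44). Amph had 48.1, 35.8 and 40.8 TPM in WT and 32.6, 17.4 and 29.2 in cKO, lower in cKO by TPM but overlapping in CPM, and −0.60 (SE 0.48; edgeR adjusted p = 0.694).

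The dynamins pinch vesicles off the membrane. Dnm1, the neuronal form, had 56.5, 163 and 65.9 TPM in WT and 64.5, 70.8 and 18.8 in cKO. Its value on the log2 scale, −0.70 (SE 0.73), was −0.17 without WT replicate 2 and −0.23 without cKO replicate 3. Dnm3 had 42.1, 24.5 and 14.6 TPM in WT and 9.97, 15.1 and 5.20 in cKO, with overlap between 1 library of each genotype, and −1.21 (SE 0.74; edgeR adjusted p = 0.581). Sh3gl2 (endophilin A1), which recruits synaptojanin, had 18.1, 84.1 and 54.8 TPM in WT and 45.9, 143 and 85.6 in cKO, with 0.89 (SE 0.72) on the log2 scale, 0.28 without cKO replicate 2 and 0.48 without WT replicate 1. Synj1, a phosphatase that acts in the uncoating of new vesicles, was at 4.55 ± 2.00 and 6.69 ± 4.98 TPM (SD, n = 3).

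Libraries of 1 genotype often differed severalfold. The highest WT library exceeded the lowest by a median factor of 2.49 over the 33 tested genes, computed on CPM + 1, and of 1.99 over all tested genes. In cKO the factors were 3.08 and 2.25. A factor of 5 or more was found in 7 of 33 genes in WT and 10 of 33 in cKO, 21.2% and 30.3% against 18.6% and 22.1% of all tested genes. Within cKO, replicate 3 was the lowest library for 20 of the 33 genes, where 36.8% of all tested genes were lowest in it, and within WT, replicate 1 was the lowest for 14, where the share over all genes was 30.6%. Summed over the 8 neurite RNAs, the level was also lowest in cKO replicate 3 among the cKO libraries (8046 CPM), and their part in the result was not tested.

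A plain ratio of related genes within a library does not depend on the scaling between libraries. The 1 TPM added here makes it depend on the level for genes near 0. For 18 pairs of relatives the log2 ratio of (TPM + 1) was compared by an exact two-sided permutation test, which cannot give a p below 0.1 with 3 libraries against 3. The most different was Syt1 over Syt4, with 3.39, 4.34 and 1.95 in WT and −3.75, −4.01 and 0.99 in cKO. Syt1 thus exceeded Syt4 in the WT libraries and in cKO replicate 3, and Syt4 exceeded Syt1 in the other pair of cKO libraries (exact p = 0.1, adjusted over 18 pairs p = 0.6). For this pair the mean difference was −5.49, and −6.42 with a pseudocount of 0.1 TPM. Slc17a7 over Slc17a6 was 3.31, 7.45 and 3.96 in WT and 3.23, 2.37 and 1.56 in cKO, so VGLUT1 mRNA was the more abundant everywhere. The mean difference of cKO from WT was −2.52, with the WT replicate 1 and cKO replicate 1 values nearly equal (exact p = 0.1, adjusted p = 0.6). It was −1.24 without WT replicate 2, where Slc17a6 was at 0 counts, and −3.74 with a pseudocount of 0.1 TPM.

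Amph over Bin1 gave the tightest separation, −1.07, −1.08 and −1.31 in WT and −1.75, −2.23 and −1.79 in cKO. The mean difference was −0.77 with within-group SDs of 0.14 and 0.27, and it stayed between −0.86 and −0.62 when single libraries were left out (exact p = 0.1, adjusted p = 0.6). Ppfia2 over Ppfia4 was at −0.59 ± 0.97 in WT and 0.76 ± 1.02 in cKO (SD, n = 3; exact p = 0.2, adjusted p = 0.9). Sv2a over Sv2b and Cplx2 over Cplx1 overlapped between the genotypes, with differences of −1.23 and −1.05 (exact p = 0.4 and 0.6). Leaving out single libraries gave −2.31 (without cKO replicate 1) to −0.45 (without cKO replicate 2) for the first and −2.27 to −0.40, without the same libraries, for the second.

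**Figure D5:**
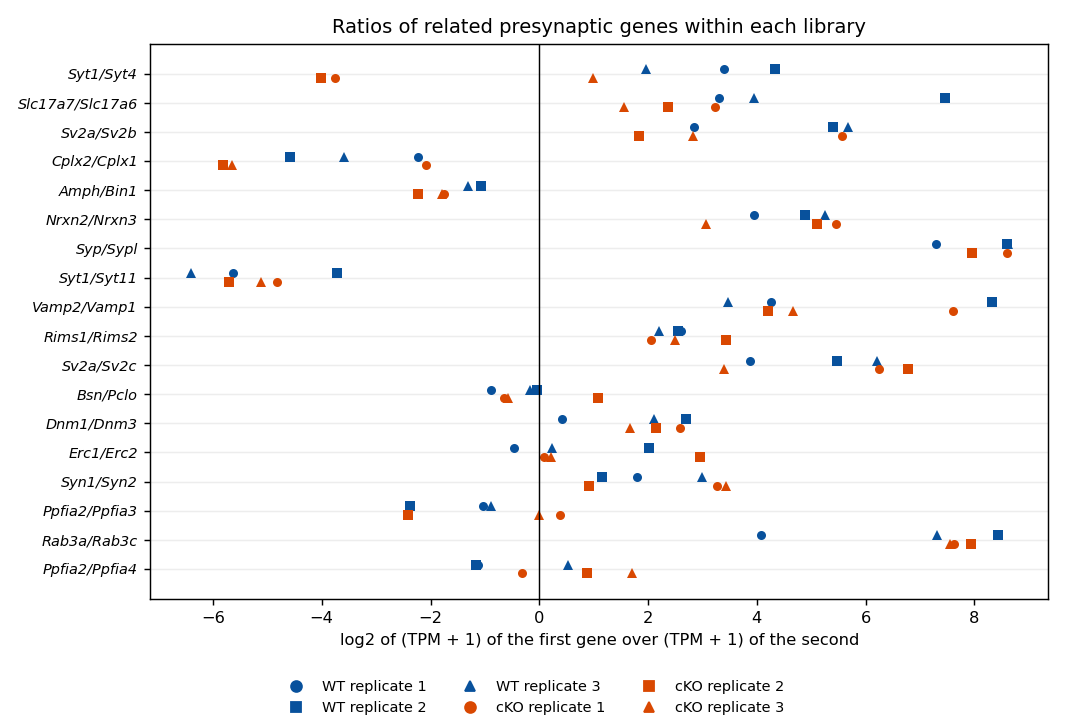
Log2 ratio of (TPM + 1) within each library for the 18 gene pairs, ordered by the difference of cKO from WT, with 1 point per library (blue WT, orange cKO). Points right of 0 mean more of the first gene. The pairs Syt1/Syt4, Slc17a7/Slc17a6 and Amph/Bin1 have all cKO points left of all WT points.

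A sequence feature that the choice of genes did not use is GGACT, the DNA spelling of the most common m6A motif. Letters were searched on the transcript strand only, in the transcript of each gene with the most counts, as matched to GENCODE M21. All 42 transcripts held it at least 1 time, as did 92.5% of the 5884 tested genes that could be matched. The median was 4.5 matches in transcripts with a median of 4387 bases, or 1.06 per 1000 bases, against 3 matches, 3141 bases and 1.05 per 1000 bases over the tested genes. Bin1 had the highest density with 2.08 and Sypl and Syt4 the lowest with 0.20 and 0.257. The 4 genes that were higher in all cKO libraries had densities of 0.257 (Syt4), 0.45 (Ppfia2), 0.493 (Erc2) and 0.914 (Cplx1). Of those lower in all cKO libraries Syt11 had 0.876, also below the median of the list, and Nsf 1.86. A median has as many genes below it as above, and these genes were picked by their values in the same libraries. As a description, density and log2 fold change had a Spearman rho of −0.31 over the 33 tested genes, which share libraries and differ in length, and of 0.00084 over the 5884. Matches are letters, and whether they are methylated in this tissue was not measured here.

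Syt11 is shown as the example, because it is the most abundant of the list and was lower in every cKO library. Its transcript had 4 matches, 3 outside the coding sequence and 1 in coding exon 2. The coding match is printed with 8 bases on either side and the motif in capitals (GRCm38, chr3:88762080-88762100, minus strand).
Syt11 coding GGACT: ttctccgtGGACTacaacttt

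The wider pathway was examined in the same fit. Of 102 further genes of vesicles, SNARE regulation, active zones and endocytosis 68 were tested, and 0 passed with edgeR (adjusted p below 0.05), with 4 at an unadjusted p below 0.05, against 0.912% and 12.6% of all tested genes. limma-voom also called 0 (all genes 0.71%), and DESeq2 called 2 of 66, Ptprs higher and Rph3a lower (all genes 7.34%). The median log2 fold change of the 68 was 0.23, with 44 positive and 24 negative values, and libraries of the genotypes did not overlap in 5 of 68, or 7.35% against 19.8% of all tested genes. Ptprs, a receptor phosphatase that organises presynaptic terminals, had 742, 861 and 410 CPM in WT and 2106, 1255 and 2282 in cKO. It was higher in every cKO library, with a log2 value of 1.49 (SE 0.37; edgeR adjusted p = 0.182). Rph3a, a RAB3 effector on vesicles, had 102, 304 and 141 CPM in WT and 37.6, 55.1 and 46.7 in cKO, lower in every cKO library, −1.97 (SE 0.58; edgeR adjusted p = 0.241). Stxbp5 (tomosyn), which holds back SNARE pairing, had 10.1, 14.5 and 9.31 CPM in WT and 18.8, 24.0 and 22.6 in cKO, 0.93 (SE 0.34). Snap47 had 10.1, 104 and 11.6 CPM in WT and 394, 569 and 59.4 in cKO, which overlap. Its log2 value was 3.00 (SE 1.22). Dnm2, lower in every cKO library, had −1.34 (SE 0.58), and Eps15, an endocytic adaptor whose genotypes overlapped, −1.24 (SE 0.54). For Snap47, Dnm2 and Eps15 the edgeR adjusted p ran from 0.383 to 0.421.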

How the data were processed

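RNA was measured in 3 WT and 3 cKO libraries, grouped and numbered by their titles. Each library has its own transcript table from RSEM, made by the authors. The submitters' processing notes name STAR 2.7.10b, RSEM 1.3.3 and mm10; for the annotation release and strand setting nothing is given in the sources used here. The deposited expected counts, per the file headers, estimate fragments per transcript. TPM was computed by the authors from counts and lengths, and an effective length is among the other deposited columns, from which fragment length was read.

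Gene totals of the expected counts, rounded, were tested with edgeR 4.0.16 in R 4.3.3 (TMM, filterByExpr with a minimum count of 10, quasi-likelihood, no covariate) over 5918 genes. Fold changes are cKO over WT. The standard error (SE) is the log2 fold change over the root of the F statistic and restates the p-value. Alternatives were other scalings, filters, DESeq2 1.42.0, limma 3.58.1 (voom, and log2(TPM + 1)), the replicate number as a block and leaving out each library; fits on the replicate 2 libraries were added after seeing the data. Paralogs share reads that RSEM divides by estimate, and 18 of the 42 genes share exon bases with a gene on the other strand, which unstranded reads do not separate. Positions are from GENCODE M21 (GRCm38, the assembly of mm10). Counting floors cover counting error only.

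The members and lists were chosen with earlier results of these data known. Named in full were the 14 tested members with the smallest p, the 8 most abundant in WT and the members of the 4 most different pairs with both genes at 10 TPM or more. The pairs Syt1/Syt4 and Slc17a7/Slc17a6, the transcripts of Snap25, Syn1 and Bin1, GGACT and other members were named after their values were seen. For other pathway genes the 6 with the smallest p were named.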

Additional observations from a re-analysis of the deposited data

How the results depend on the processing

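The count of genes called over all genes, 54, depended on the processing: 22 without a filter and 22 with 1 CPM in 3 libraries, 429 with DESeq2, 0 to 42 when single libraries were left out (0 without WT replicate 3 or cKO replicate 1, with 573 and 591 at an unadjusted p below 0.05 by edgeR, 1 without WT replicate 1, 10 without cKO replicate 2, 21 without WT replicate 2 and 42 without cKO replicate 3), 19 with the replicate 2 libraries as a batch term and 0 without both (edgeR, 740 genes at an unadjusted p below 0.05). The fit with a replicate block gave 1 (763 at an unadjusted p below 0.05 by edgeR), with 0 of the 33 presynaptic genes called. The sources used here do not say whether equal numbers pair the libraries. Deviations of WT and cKO replicate 1 correlated at 0.0638 (0.462 for replicate 2, 0.162 for replicate 3), which cannot decide it. WT replicate 1 correlated best with cKO replicate 3 (0.200), and WT replicates 2 and 3 with their own number. Taken from the cKO side, only replicate 2 correlated best with its own number. There cKO replicate 1 correlated best with WT replicate 3 (0.105) and cKO replicate 3 with WT replicate 1.

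Presynaptic genes called higher numbered 0, and 1 (Syt4) with upper-quartile scaling, with DESeq2 and without cKO replicate 3 (0 to 1 over left-out libraries). Called lower were 0, and 1 (Syt11) with DESeq2. The median of the list, −0.01, ran from −0.24 with upper-quartile scaling, where the all-gene median went from 0.07 to −0.22, to 0.24 without WT replicate 1. Of 382 values of named genes under alternatives 357 kept direction and side of the threshold, 4 passed and 21 turned in sign; 13 of 24 genes never turned. Nrxn2 turned with upper-quartile scaling (−0.19), limma-voom (−0.19), log2(TPM + 1) (−0.31) and the block (−0.18), Bin1 with upper-quartile scaling (−0.17), and Syt1 without both replicate 2 libraries (0.16). With single libraries left out, ranges that crossed 0 were −0.070 to 0.29 (Bin1), −0.48 to 3.06 (Erc1), −0.41 to 0.79 (Nrxn2), −0.066 to 1.24 (Pclo), −1.22 to 0.37 (Ppfia4), −0.67 to 0.11 (Snap25), −1.11 to 0.18 (Stx1a), −0.65 to 0.49 (Sv2a), −0.42 to 0.14 (Syp) and −0.13 to 2.65 (Vamp2). Ranges of one sign that were also wide were 0.30 to 1.35 (Rab3a), 0.91 to 2.37 (Cplx1), 0.28 to 1.33 (Sh3gl2), 0.23 to 0.55 (Rims1), −1.04 to −0.17 (Dnm1), −1.73 to −0.77 (Dnm3), −1.11 to −0.21 (Sncb), −1.47 to −0.12 (Syt1) and −0.92 to −0.41 (Amph). The causes were not tested.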
